A study of Mus musculus with 4 samples.

Results

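The genes described here were 10 components of the Notch pathway, chosen by name from the gene tables: the receptors Notch1, Notch2 and Notch3, the ligands and ligand-like proteins Dll1, Dll3, Jag1 and Dner, and the target genes Hes1, Hes5 and Hey1. All 10 were among the 23475 genes listed in the files. They were measured by mRNA sequencing of cortical astrocytes, isolated from mouse pups on postnatal day 5, with 2 libraries labelled KO and 2 labelled WT. The KO mice are given as PD1cKO-Cx3, a conditional deletion of the PD-1 gene, and the WT mice as PD1fl/fl, so the WT animals carry the floxed PD-1 gene too. What Cx3 stands for, in which cells the deletion took place, the strain, and whether a library came from 1 animal or a pool could not be read from the labels. P-values therefore measure only the spread between these libraries, which may be technical in the WT pair. The KO libraries differed in their sex-linked transcripts, as given below, so their spread is not technical alone.

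Notch is a receptor that reads the surface of the neighbouring cell. A ligand on that neighbour, of the Delta-like or Jagged type, exposes the receptor to cleavage by an ADAM protease and then by gamma-secretase, and the freed intracellular domain enters the nucleus and joins the DNA-binding protein RBPJ and a Mastermind protein to switch on target genes. The best known targets encode the HES and HEY repressors, which hold back the genes that make a cell a neuron; in the developing cortex the pathway keeps progenitors undifferentiated and favours the astrocyte fate, and in blood vessels it acts in endothelial cells and pericytes.

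RBPJ binds the core letters TGGGAA, most strongly as part of GTGGGAA, and Hes5 is a classical example of a gene with such letters close to its start. Windows of 250 bases before the annotated start, from the RefSeq promoter table for GRCm38.p6, were available for 8 of the 10 members, in 9 windows; none was used for Hes1 and Hey1. Searched on both strands, TGGGAA was found in 1 of the 9 windows, that of Hes5, and in 21.6% of all 32851 windows in the table. GTGGGAA, which contains TGGGAA, was found in that same window and in 5.4% of all windows. The Hes5 window (chr4:154960673-154960922, plus strand) held 2 matches, from base 226 to base 221 and from base 82 to base 77 before the start, and both were part of GTGGGAA on one strand or the other. It is shown beside the window of Dner (chr1:84696222-84696471, minus strand), the member with the largest difference between the groups, which held no match. The sequences run 5′ to 3′ on the strand of the gene, and capitals mark TGGGAA or its reverse complement.
Hes5: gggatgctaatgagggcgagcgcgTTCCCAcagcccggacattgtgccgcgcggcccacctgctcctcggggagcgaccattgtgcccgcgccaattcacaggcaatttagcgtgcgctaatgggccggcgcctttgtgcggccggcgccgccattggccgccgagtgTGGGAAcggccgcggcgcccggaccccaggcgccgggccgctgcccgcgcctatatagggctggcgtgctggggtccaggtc
Dner: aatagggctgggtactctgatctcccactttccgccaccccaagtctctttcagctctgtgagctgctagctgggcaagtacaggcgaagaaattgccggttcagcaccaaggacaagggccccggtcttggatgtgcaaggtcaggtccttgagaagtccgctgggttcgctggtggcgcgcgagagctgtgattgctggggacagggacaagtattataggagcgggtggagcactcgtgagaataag
A match of letters is a description of the window only, and no binding was measured.

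The libraries held between 14224519 and 16961160 counts in all, of which the 10 members took between 24625 and 33176. Their lowest count in any library was 439. KO replicate 2 stood apart in its sex-linked transcripts, with 2472 counts of Ddx3y and 0 of Xist, against 0 of Ddx3y and between 6732 and 8564 of Xist in each other library. All members lie on autosomes. Without this library, which leaves KO replicate 1 alone in its group, 7 of the 10 had a log2 fold change below 0. Sex cannot be told apart from other traits of this library, and its part in the values of the members was not tested. Pdcd1, which encodes PD-1, had 20 counts in KO replicate 2, no listed count in KO replicate 1 and 0 in both WT libraries, so its counts do not check the labels, and KO and WT are used here as labels of libraries. The markers of the labelled cell type were abundant in all libraries: the 15 astrocyte markers summed to 9673 and 8474 CPM in the KO libraries and 10084 and 9163 CPM in the WT libraries, where CPM is the count relative to library total, adjusted by TMM factors that even out differences in composition between libraries. The astrocyte glutamate transporter Slc1a3 alone had 2907 and 2744 CPM in the KO libraries and 2995 and 2952 CPM in the WT libraries.

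**Figure D1:**
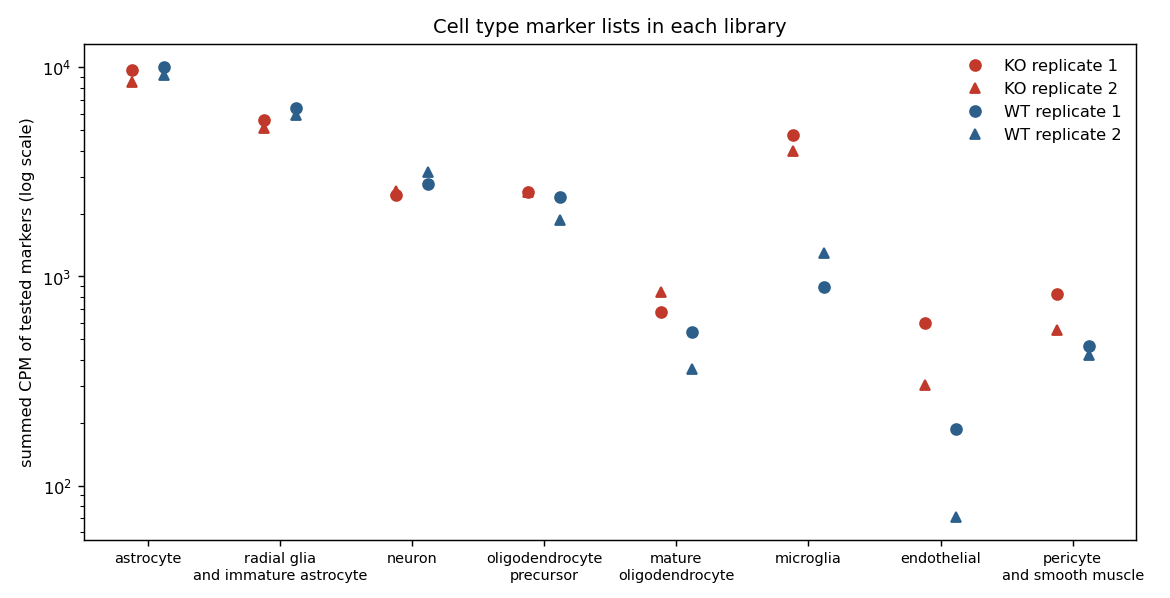
Summed CPM of the tested genes of 8 cell type marker lists (log scale) in the 2 KO libraries (red, left of each column) and the 2 WT libraries (blue, right); circles are replicate 1 and triangles replicate 2. Astrocyte sums lay between 8474 and 10084 CPM, while microglial sums were 4730 and 3996 CPM in the KO libraries and 889 and 1294 CPM in the WT libraries.

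Markers of other cells were also detected, at levels that differed between the libraries. All 14 microglial markers were higher in both KO libraries than in both WT libraries, and so were all 12 endothelial markers, which summed to 599 and 302 CPM in the KO libraries and 186 and 70.7 CPM in the WT libraries. Such a separation was seen upward in 21.2% and downward in 18.4% of all genes. Of the 15 astrocyte markers 1 was separated upward and 4 downward. The log2 fold change of these astrocyte markers lay above 0 in 5 and below 0 in 10, at a median of -0.061. Of the 8 tested pericyte and smooth muscle markers 3 were separated upward and 1 downward. Of the 12 neuronal markers 1 was separated upward and 5 downward. The 9 tested markers of radial glia and immature astrocytes stand for cells in which Notch receptors and Hes5 are typically active. Of these markers 5 were separated downward and 0 upward. On the log2 scale 6 lay below 0 and 3 above, at a median of -0.22. The part of all these cell types in the values of the members was not tested. In bulk RNA, fewer cells of a type and less RNA per cell cannot be told apart.

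Set against each other per length, Hes5, Dll3, Dner and Hey1 were the highest of the 10 members, in that order. Levels are given as CPM per kilobase of merged exon, on the GENCODE M21 annotation, and as the range over all 4 libraries. Hes5 was the highest, from 312 to 374 CPM per kb, above 99.7% of the genes tested or level with them. Dll3 followed with 83.0 to 126 CPM per kb, Dner with 48.2 to 82.9 CPM per kb and Hey1 with 29.4 to 45.5 CPM per kb, and the ranges of these leading genes did not overlap, nor did that of Hey1 overlap that of the next gene. Hes1, from 13.9 to 28.4 CPM per kb, and Dll1, from 16.4 to 22.7 CPM per kb, could not be placed in order beyond the spread between libraries. Notch3, from 9.04 to 15.3 CPM per kb, lay under the range of Dll1 but overlapped that of Hes1. After it came Notch1, from 9.70 to 11.7, Notch2, from 6.96 to 9.79, and Jag1, from 4.62 to 7.66, and from Notch3 on each gene overlapped the next in the order. Merged exons count every annotated transcript form, so a gene with many unused forms is placed too low on this scale.

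**Figure D2:**
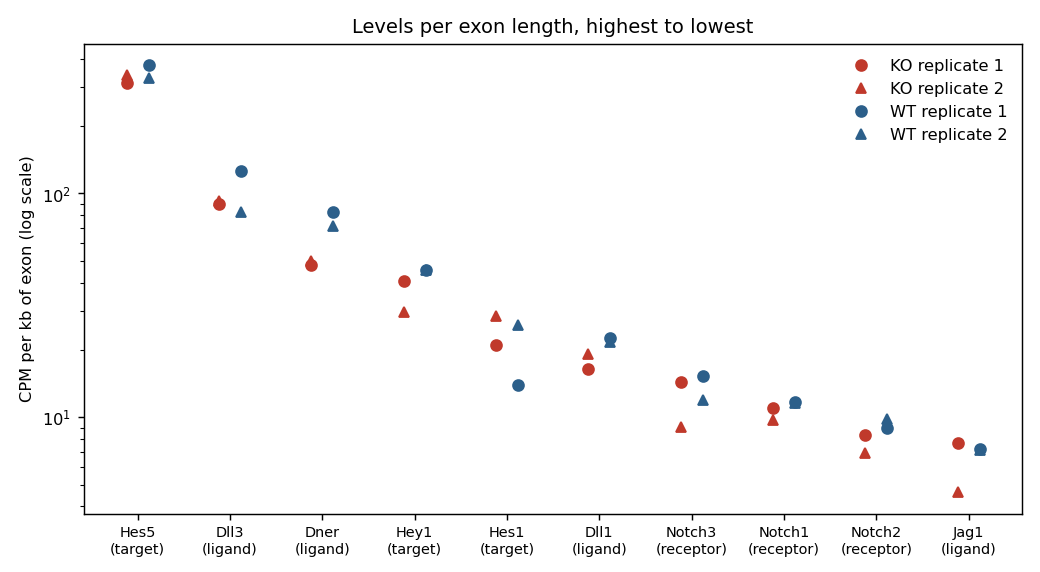
Level of each member in CPM per kilobase of merged exon (log scale), ordered from the highest mean to the lowest, in the 2 KO libraries (red, left) and the 2 WT libraries (blue, right). Hes5 lies at 312 CPM per kb or more in every library, and Notch1, Notch2, Notch3 and Jag1 at 15.3 CPM per kb or less.

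The comparison of KO with WT asks whether transcripts of the Notch pathway differ in the astrocyte preparation when PD-1 is conditionally deleted. None of the 10 members passed at an adjusted p under 0.05, where 0.017% of all 17696 genes tested were called (edgeR quasi-likelihood test, Benjamini-Hochberg adjustment over all genes). At an unadjusted p under 0.05 there was 1 member, Dner, against 8.29% of all genes. DESeq2 called 1 member, Dner, as lower, against 0.356% of all genes called lower, and 0 members as higher, against 1.78% called higher and 2.14% called in either direction, and limma-voom called 0 members, against 0.158%. By log2 fold change 9 of the 10 members lay below 0, as did 50% of all genes, and their median was -0.22, where that of all genes was -0.00027. In 5 members both KO libraries lay below both WT libraries, against 18.4% of all genes, and in 0 members both lay above, against 21.2%. Counted in either direction, the groups did not overlap in 5 members and in 39.6% of all genes. A two-sided exact permutation test over 2 and 2 libraries cannot give a p under 0.333, so none was used.

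**Figure D3:**
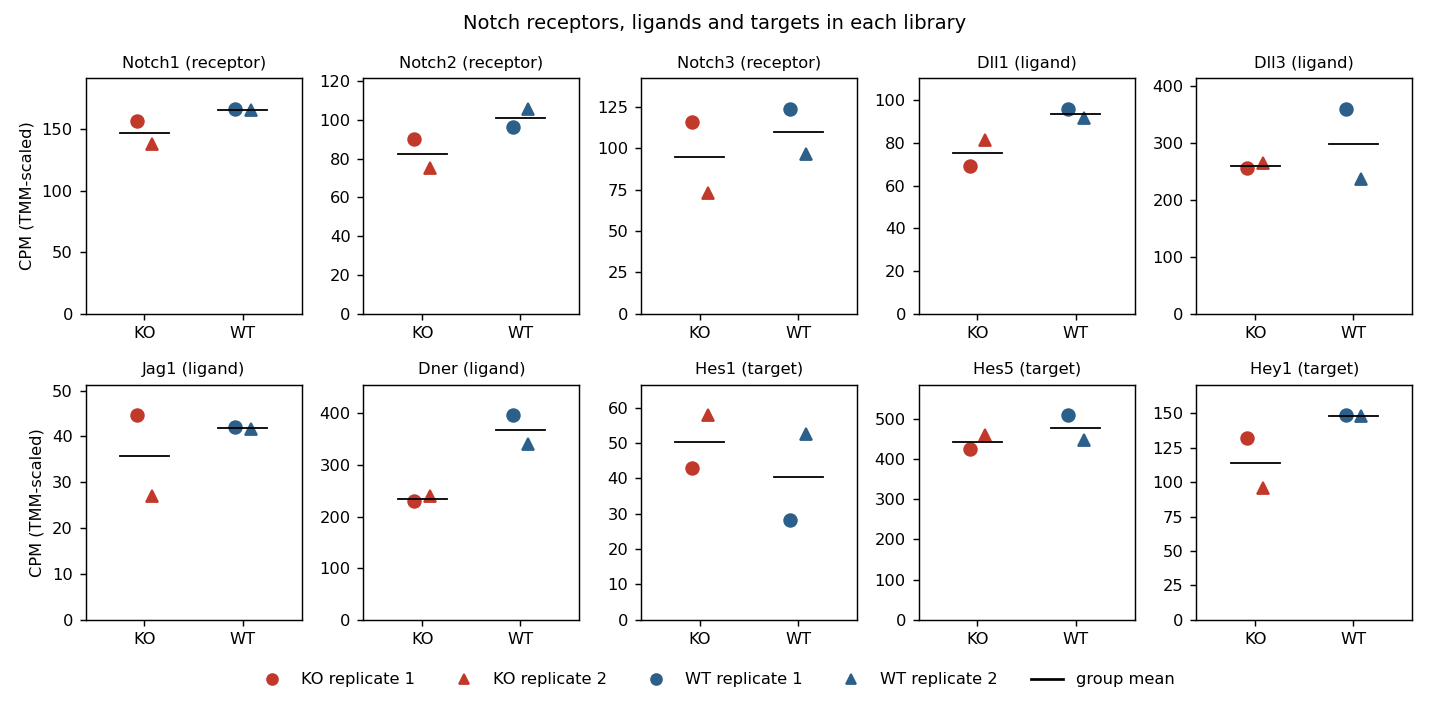
CPM of each member (linear axes from 0) in the KO libraries (red, left) and the WT libraries (blue, right); circles are replicate 1, triangles replicate 2, and bars group means. Both KO libraries lie below both WT libraries for Notch1, Notch2, Dll1, Dner and Hey1, with the widest gap for Dner.

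**Figure D4:**
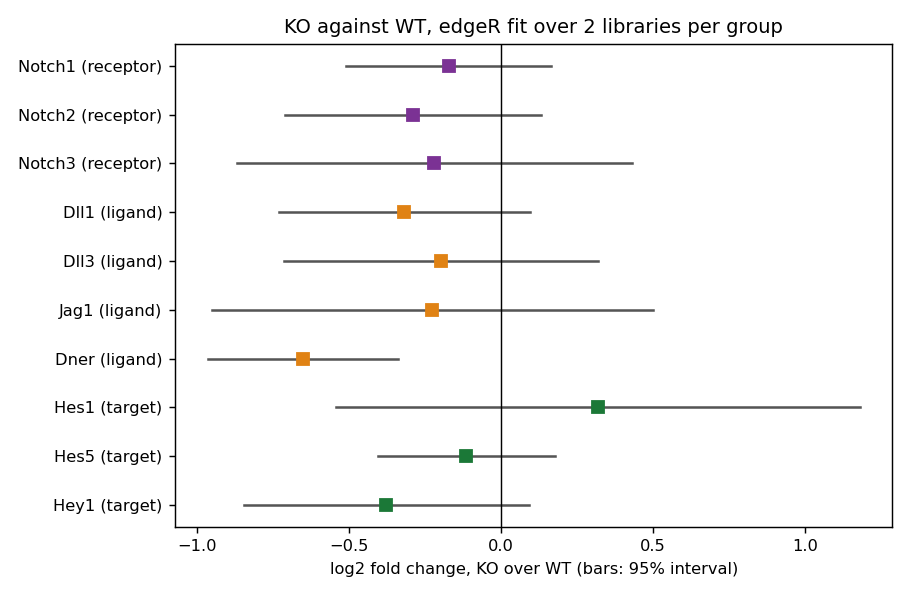
Log2 fold change of each member, KO over WT, from the edgeR fit over 2 libraries per group, with bars for the 95% interval; colours mark receptors, ligands and targets. The interval of Dner, from -0.97 to -0.34, is the one that does not reach 0.

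The 3 receptors had lower group means in KO, by small amounts. Notch1 (ENSMUSG00000026923, chromosome 2, 26457903 to 26516663, minus strand, GRCm38, as for all positions here), the receptor that neural progenitors need to stay undifferentiated, had 156 and 138 CPM in the KO libraries and 166 and 165 CPM in the WT libraries. Both KO libraries lay under both WT libraries, but the gap from KO replicate 1 to WT was smaller than that between the KO libraries. The log2 fold change was -0.17 ± 0.14 (SE, n = 2 each; edgeR, adjusted p = 0.845), with a 95% interval from -0.51 to 0.17.

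Notch2 (ENSMUSG00000027878, chromosome 3, 98013527 to 98150361, plus strand), a close relative also made by radial glia and astrocytes, had 90.2 and 75.0 CPM in the KO libraries and 96.3 and 106 CPM in the WT libraries. The groups did not overlap, and the log2 fold change was -0.29 ± 0.17 (SE; edgeR, adjusted p = 0.756). Notch3 (ENSMUSG00000038146, chromosome 17, 32120820 to 32166880, minus strand, a position given by the files alone and not identical in GENCODE M21) is best known from pericytes and arterial smooth muscle. It had 116 and 73.1 CPM in the KO libraries and 124 and 96.3 CPM in the WT libraries, and KO replicate 1 lay between the WT libraries. Its log2 fold change was -0.22 ± 0.26 (SE; edgeR, adjusted p = 0.924), and it was 0.073 without KO replicate 2, so the direction rested on that library.

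The 8 tested pericyte and smooth muscle markers summed to 829 and 552 CPM in the KO libraries and 465 and 423 CPM in the WT libraries. These sums were in the order of Notch3 within each group but not between the groups. In the WT libraries that order rested on Cspg4, which is also on the list of oligodendrocyte precursor markers. It had 145 and 77.3 CPM there, a wider gap than that between the WT sums. Rgs5, a pericyte gene, had 508 and 326 CPM in the KO libraries, high and low in the same libraries as Notch3. In the WT libraries it had 235 and 256 CPM, below both KO values and in the opposite order to Notch3. The pericyte receptor Pdgfrb, named after its values were seen, had 60.3 and 34.7 CPM in the KO libraries and 57.2 and 53.8 CPM in the WT libraries. Its log2 fold change was -0.23, whereas 6 of the 8 tested markers lay above 0 and 2 below, at a median of 0.45. The part of these cells in the Notch3 values was not tested.

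Among the ligand genes the largest difference was that of Dner. Dner (ENSMUSG00000036766, chromosome 1, 84369839 to 84696221, minus strand) encodes a transmembrane protein with EGF repeats that neurons carry on their dendrites and that has been described as a Notch ligand acting on neighbouring glia. It had 230.4 and 239 CPM in the KO libraries and 396 and 341 CPM in the WT libraries. The KO libraries lay close together and far below both WT libraries. Dner averaged 235 ± 6.14 CPM in the KO group, against 369 ± 39.1 CPM in the WT group (SD, n = 2 each), a fold of 0.637, and the log2 fold change was -0.65 ± 0.13 (SE) with a 95% interval from -0.97 to -0.34. It ranked 164 of 17696 genes by p, and over all genes it did not pass (edgeR, unadjusted p = 0.00242, adjusted p = 0.259). DESeq2 called it lower (adjusted p = 0.000523) and limma-voom did not (adjusted p = 0.134).

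In the authors' deposited tables, each of which sets 1 KO library against 1 WT library, the log2 fold change of Dner ran from -0.78 to -0.54 over the 4 pairs. Their significant label was given in none of them for Dner. In all 4 the adjusted p of the authors' unnamed test between single libraries was under 0.05, so the label did not follow that p-value alone. With 1 library left out in turn, the log2 fold change lay between -0.75 and -0.54, and it was -0.68 without KO replicate 2. Markers of neurons lay on the same side in part: the neuronal list summed to 2461 and 2567 CPM in the KO libraries and 2766 and 3145 CPM in the WT libraries, with a median log2 fold change of -0.18. Its most abundant genes were Map2, a protein of dendritic microtubules, with 877 and 904 CPM in the KO libraries and 983 and 1066 CPM in the WT libraries, and Dcx, a protein of young neurons, at a log2 fold change of -0.13. Other genes of the list, named after their values were seen, differed by nearly as much as Dner. Tubb3, a neuronal tubulin, stood at -0.60 ± 0.12 (SE; edgeR, adjusted p = 0.288) and Gad2, an enzyme of GABA synthesis, at -0.60 ± 0.15 (SE; adjusted p = 0.381). Stmn2 and Gad1 stood at -0.44 and -0.42, and the synaptic gene Snap25 at 0.51. Over the whole list of 12 genes, 8 lay below 0 and 4 above, and in 6 the groups overlapped. The part of neuronal RNA in the Dner difference was not tested. Dner lies 9.34 Mb from Pdcd1 on chromosome 1. Between them lie 104 tested genes, whose median on the log2 scale was 0.070, with 25 separated upward, against 21.2% of all genes, and 13 downward, against 18.4%.

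Dll1 (ENSMUSG00000014773, chromosome 17, 15367354 to 15376872, minus strand), the ligand that differentiating progenitors present to their neighbours, had 69.1 and 81.1 CPM in the KO libraries and 95.8 and 91.4 CPM in the WT libraries. The groups did not overlap. Its log2 fold change was -0.32 ± 0.17 (SE; edgeR, adjusted p = 0.71).

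Dll3 (ENSMUSG00000003436, chromosome 7, 28293553 to 28302238, minus strand) is an unusual family member that stays mostly inside the cell and dampens Notch in its own cell. It had 256 and 264 CPM in the KO libraries and 359 and 237 CPM in the WT libraries, so both KO libraries lay between the WT libraries. The log2 fold change of -0.20 ± 0.21 (SE; edgeR, adjusted p = 0.911) was 0.14 without WT replicate 1. Oligodendrocyte precursors also make Dll1 and Dll3, and the 8 markers of those cells lay above 0 on the log2 scale, at a median of 0.32. Their sums were 2526 and 2541 CPM in the KO libraries and 2403 and 1854 CPM in the WT libraries, so WT replicate 1 was the higher WT library in this sum as in Dll3. The part of these cells in the Dll1 and Dll3 values was not tested.

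Jag1 (ENSMUSG00000027276, chromosome 2, 137081456 to 137116644, minus strand), the Jagged ligand of astrocytes and of vessel walls, had 44.6 and 26.9 CPM in the KO libraries and 42.0 and 41.6 CPM in the WT libraries. KO replicate 1 was the highest of the 4 and KO replicate 2 the lowest. The log2 fold change of -0.23 ± 0.29 (SE; edgeR, adjusted p = 0.933) turned to 0.091 when KO replicate 2 was left out and to -0.63 when KO replicate 1 was. Endothelial markers summed to 599 CPM in KO replicate 1 and 302 CPM in KO replicate 2, high and low in the same libraries as Jag1. In the WT libraries they summed to 186 and 70.7 CPM while Jag1 differed by less than 1 CPM. What endothelial RNA adds to Jag1 was not tested.

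The 3 target genes lay on both sides of 0. Hes5 (ENSMUSG00000048001, chromosome 4, 154960923 to 154962371, plus strand), the repressor most typical of Notch activity in neural progenitors and young astrocytes, had 425 and 459 CPM in the KO libraries and 509 and 447 CPM in the WT libraries. KO replicate 2 lay between the WT libraries. Its log2 fold change was -0.11 ± 0.12 (SE; edgeR, adjusted p = 0.906), with a 95% interval from -0.40 to 0.18, the narrowest of the members. It was -0.014 without WT replicate 1 and -0.20 when WT replicate 2 was left out.

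Hes1 (ENSMUSG00000022528, chromosome 16, 30064384 to 30067796, plus strand), a repressor that answers to Notch and to other signals and whose mRNA is short-lived, had 42.9 and 57.9 CPM in the KO libraries and 28.3 and 52.6 CPM in the WT libraries. It was the 1 member with a log2 fold change above 0, at 0.32 ± 0.35 (SE; edgeR, adjusted p = 0.913), and its WT libraries differed more than its group means. Leaving out WT replicate 1 gave -0.060, and leaving out WT replicate 2 gave 0.84. Among the 40 log2 fold changes of the members in the authors' deposited tables, 1 was labelled significant. It was that of Hes1 between KO replicate 2 and WT replicate 1, at 1.03, which was also the largest in size. Between KO replicate 1 and WT replicate 2 Hes1 stood at -0.32. Those tables compare single libraries, not the conditions.

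Hey1 (ENSMUSG00000040289, chromosome 3, 8663359 to 8667256, minus strand), a HES-related repressor also active in vessels, had 132 and 96.0 CPM in the KO libraries and 149 and 148 CPM in the WT libraries. The groups did not overlap, and the WT libraries were nearly equal. The log2 fold change was -0.38 ± 0.19 (SE; edgeR, adjusted p = 0.691), the second in size of those below 0, and it ran from -0.62 without KO replicate 1 to -0.17 without KO replicate 2. KO replicate 2 was lower than KO replicate 1 in all 3 receptors, in Jag1 and in Hey1, and higher in Dll1, Dll3, Dner, Hes1 and Hes5.

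**Figure D5:**
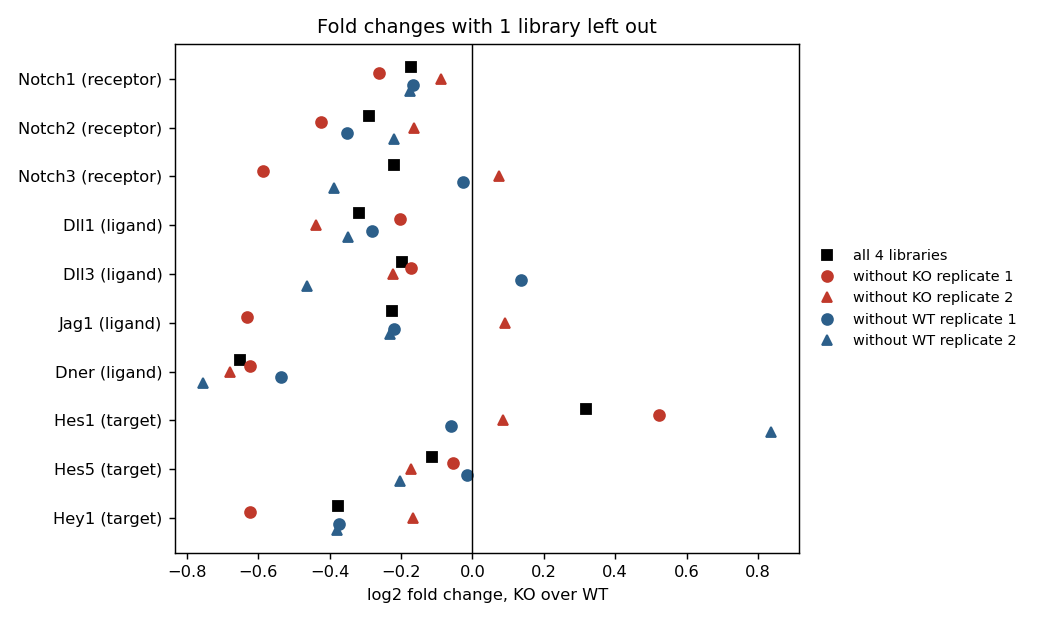
Log2 fold change of each member, KO over WT, with all 4 libraries (black squares) and with each library left out (red, a KO library; blue, a WT library; circles replicate 1, triangles replicate 2). Dner stays between -0.75 and -0.54 and Hes1 runs from -0.060 to 0.84, and Notch3, Dll3, Jag1 and Hes1 cross 0.

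No member had a near-identical copy elsewhere among the annotated transcripts. Exons of Notch1, Notch2, Notch3, Dll1, Dner and Hes5 overlap those of non-coding genes, on the opposite strand for all but Notch2, and no label or header says whether reads were counted by strand. Those of the overlapping genes that the files list had at most 27 counts in any library. These counts do not show how many reads of the members the overlaps affected.

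The rest of the pathway was read from a list of 71 further genes, of which 66 were listed in the files and 62 passed the filter on low counts. Over all genes 0 of the 62 passed in edgeR, 0 in limma-voom and 2 in DESeq2, where DESeq2 called 2.14% of all genes. Before adjustment, 5 genes were higher and 0 lower at p under 0.05, against 5.88% higher and 2.41% lower of all genes. Their median log2 fold change was 0.12, with 39 above 0 and 23 below, and both KO libraries lay above both WT libraries in 18, against 21.2% of all genes, and below in 6, against 18.4%.

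The genes that act between ligand and target are given by abundant members of each list. Among the 9 genes of receptor cleavage, Ncstn, a subunit of gamma-secretase, had a log2 fold change of 0.040 ± 0.19 (SE; edgeR, adjusted p = 0.99). Among the 13 genes of the nuclear complex, the coactivator Crebbp stood at 0.19 ± 0.15 (SE). Rbpj, the DNA-binding partner, named after its values were seen, had 21.4 and 17.8 CPM in the KO libraries and 17.3 and 20.9 CPM in the WT libraries (log2 fold change 0.040 ± 0.28 SE; edgeR, adjusted p = 0.993). It has a near-identical processed pseudogene, so its count is uncertain.

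Of the 9 tested genes that glycosylate or process the receptor, the Fringe enzymes Rfng and Mfng were the most abundant, with log2 fold changes of -0.18 and -0.044. Of the 6 genes of ligand endocytosis, the epsin gene Epn2 had 0.23 and the ubiquitin ligase gene Mib1 -0.21. Of the 11 antagonists and turnover genes, the ubiquitin ligase genes Itch and Dtx3 had -0.14 and 0.22. In these 3 lists 0 genes passed in edgeR, 1 had an unadjusted p under 0.05, and the smallest adjusted p was 0.455.

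Of the other receptors and ligands 7 were tested, and their median on the log2 scale was 0.32. Cntn1, a cell adhesion protein described as a Notch ligand of oligodendrocytes, had 413 and 484 CPM in the KO libraries and 390 and 330.5 CPM in the WT libraries, which is a log2 difference of 0.32 ± 0.14 (SE; edgeR, adjusted p = 0.64). Mfap2, a microfibril protein, stood at -0.28 ± 0.12 (SE) on the log2 scale. The endothelial receptor Notch4, named after its values were seen, had 66 and 52 counts in the KO libraries and 3 and 19 in the WT libraries, in the same direction as the endothelial markers (log2 fold change 2.28 ± 1.2 SE; edgeR, adjusted p = 0.694). The other HES and HEY targets had 3 tested members, with the neurogenic factor Hes6 at 0.17 ± 0.12 (SE) and Heyl, a target known from smooth muscle, at -0.16 ± 0.45. Of the neurogenic genes that HES proteins repress 4 were tested and 0 passed in edgeR, with 1 at an unadjusted p under 0.05. That gene, Neurod1, had 48.6 and 68.9 CPM in the KO libraries and 28.2 and 35.7 CPM in the WT libraries, or 0.88 ± 0.26 on the log2 scale (SE; edgeR, adjusted p = 0.455).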

How the data were processed

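The authors deposited 4 tables, each with 2 libraries, that hold whole-number counts per gene, per the file headers. The authors also deposited a normalized value per library, which is the count as CPM with a small constant in place of 0, the fold change as the ratio of those values, its log2, and p-values of an unnamed test between 1 KO and 1 WT library. Bowtie2 2.2.3, TopHat2 2.0.12 and HTSeq 0.6.0 are named, per the submitters' processing notes, with no roles. The build in those notes is mm9, whereas 90.6% of listed positions equal GENCODE M21 positions, so coordinates are on GRCm38. No source says whether counting was stranded.

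The tables were joined by gene. A listed gene had counts in both libraries of a table, or 0 in one and at least 5 in the other; unlisted counts were set to 0 and can be at most 4. The mean chi-square over genes was 20.3 for the KO pair and 30.7 for the WT pair, where sampling noise alone gives about 1, so all 4 libraries were kept as separate samples. Groups were compared with edgeR 4.0.16 (R 4.3.3; TMM, quasi-likelihood test) on 17696 genes kept by filterByExpr (minimum count 10). P-values were adjusted over all of them (Benjamini-Hochberg, threshold 0.05), and an SE is the fold change divided by the root of F. Alternatives were DESeq2 1.42.0, limma-voom (limma 3.58.1), other scalings and filters, a replicate block, each library left out, and unlisted counts at their upper limit. The method was tested on simulated data. The members, lists and tests were chosen with earlier results of these data known. Named beside the members were, from each list, its called genes or, where none was called, its 2 with the highest mean CPM (marker genes only where a result turned on them), and other names are marked. Some genes that this rule names are not reported here. Sequences are from RefSeq.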

Additional observations from a re-analysis of the deposited data

How the results depend on the processing

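The log2 fold change of each member kept its direction under the 10 alternatives that kept all 4 libraries. With 1 library left out it ran from -0.59 to 0.073 for Notch3, from -0.63 to 0.091 for Jag1, from -0.46 to 0.14 for Dll3 and from -0.060 to 0.84 for Hes1, each with 1 change of sign, and the other 6 members kept theirs. The median of the members ran from -0.34 to -0.17 over those fits. Members called numbered 1 with DESeq2 and 0 under every other alternative, and other pathway genes called numbered 2 with DESeq2 and 0 otherwise. Genes called over all genes, 3 here, numbered 378 with DESeq2, 28 with limma-voom, 5 when libraries were scaled to the astrocyte markers, 56 with no filter on low counts, 68 when mean CPM had to reach 5, and 0 to 42 with 1 library left out, namely 7 without KO replicate 1, 0 without KO replicate 2 (edgeR, with 613 up and 408 down before adjustment at 0.05), 1 without WT replicate 1 and 42 without WT replicate 2. Members whose groups did not overlap numbered 5. When scaled to the astrocyte markers they numbered 4, where 4554 of all 17696 genes were separated upward and 2032 downward. With 1 library left out they numbered 6 to 9, where a lone library is more easily separated and is assumed to vary like the others. Without KO replicate 1 there were 8, where 6338 of all 19152 genes were separated upward and 5353 downward. Without WT replicate 2 there were 9, where 6968 of all 19260 genes were separated upward and 6851 downward. The cause of the other changes was not tested. Libraries with the same replicate number showed almost no shared deviation (correlation 0.0321). With 2 libraries per group this cannot show whether they were paired. With the replicate block 4 genes and 0 members were called. Unlisted counts at their upper limit changed none of the counts and member values in this paragraph. The main edgeR fit has 2 residual degrees of freedom, and fits with a block or with 1 library left out have fewer. Its p-values, SEs and intervals also borrow spread from the other genes, which gave a median of 5.76 degrees of freedom in total. Each member had at least 439 counts in every library.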

Other observations

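Named here after their values were seen, 3 other genes of the pathway stood highest by size or by p. Adam10, the protease that makes the first activating cut in Notch, had 147 and 138 CPM in the KO libraries and 94.8 and 67.8 CPM in the WT libraries. On the log2 scale this is 0.81 ± 0.20 (SE; edgeR, adjusted p = 0.372). Hdac1, a deacetylase of the corepressor complex, had 80.5 and 76.0 CPM in the KO libraries and 40.4 and 43.2 CPM in the WT libraries, or 0.90 ± 0.18 on that scale (SE; edgeR, adjusted p = 0.259). These were the 2 pathway genes called by DESeq2. Gm10093, a processed pseudogene that matches Hdac1 at 99.4% over 1444 bases, had 336 and 334 counts in the KO libraries and 553 and 520 counts in the WT libraries, the opposite direction, so counting could split reads between them and the Hdac1 value is uncertain.

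Neurl1a, a ubiquitin ligase of the Neuralized family that acts on Notch ligands in flies, had 925 and 508 counts in the KO libraries and 97 and 2 counts in the WT libraries. Its log2 fold change of 3.89 ± 1.2 (SE) missed the threshold (edgeR, adjusted p = 0.455), and the 2 WT libraries were far apart.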
